A study of Mus musculus with 11 samples.

Results

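Monocyte and macrophage genes were followed across the back skin of imiquimod-treated wild-type and Trex2 knockout mice. The members are 39 of the 38406 genes in the table, taken by symbol from a list of markers of blood monocytes and tissue macrophages, and all 39 were found and were expressed highly enough to be tested. Emr1 and Chi3l3 stand under these older names (now Adgre1 and Chil3). For the description the members were divided by role into 6 genes of inflammatory monocytes, 10 of resident macrophages, 9 shared by the lineage, 7 Fc and recognition receptors with their adaptors, and 7 genes of activation and lipid handling. The wild-type group held 5 C57BL/6 mice and the knockout group 6 Trex2-/- mice of the same strain, all female and 8 to 10 weeks old. Every mouse of both groups had received 125 mg of 5% imiquimod cream (Aldara) on its shaved back on each of 4 days, and the skin was taken 24 hours after the last dose. No skin without imiquimod was analysed here. The RNA came from pulverized whole skin, so all layers of the skin contribute to each value.

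Monocytes are made in bone marrow and enter inflamed skin from the blood, where those of the inflammatory kind carry high surface Ly6C. Macrophages that reside in the dermis between episodes of inflammation take up debris and carry scavenger and lectin receptors such as CD163 and the mannose receptor, and monocytes that enter the tissue can take on macrophage genes as they mature. Both carry the receptor for colony-stimulating factor 1 and depend on the transcription factor PU.1, and in imiquimod-treated skin they accompany neutrophils in the infiltrate. In RNA of whole tissue, fewer cells of a type and less RNA per cell cannot be told apart.

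Counted reads per library ranged over 1208896 to 5853454 for wild type and 3125366 to 15557862 for knockout, a difference with p = 0.026 in a two-sided exact permutation test (0.0524 without wild-type replicate 2 or 6, 0.0714 without wild-type replicate 3). Trex2, an exonuclease gene of keratinocytes, checked the labels, at 1480 ± 446 normalized counts for wild type against 1.85 ± 0.91 (SD, n = 5 and 6). Knockout replicates 9 and 12 stood apart from the other 4 knockout libraries, with scores of 6 keratinocyte markers of 2.40 and 1.97 against −0.22 to 0.39. A score is the mean over genes of log2(normalized count + 1), each gene centred on its mean over the 11 libraries. Wild-type replicate 4 stood apart from the other wild-type libraries in the same direction (1.28 against −2.54 to −0.61).

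Of the members 36 of 39 had lower means in knockout skin, but none passed the threshold in limma. Of 39 members 35 had a negative log2 change, where 49% of the 13215 genes tested were negative. A log2 change is the knockout mean minus the wild-type mean of log2(normalized count + 1), and its SE comes from limma. The median was −0.44 over the members and 0.0081 over all genes. At an unadjusted p under 0.05, limma found 16 members lower (background 11.5% of all genes) and 0 higher (background 12.9%), which is 16 of 39 on the lower side. Past an adjusted p of 0.05, limma found 0 members (background 0.00757% in each direction), edgeR 0 lower (background 0.0227%) and DESeq2 4 lower, namely Ly6c2, Plac8, Fcer1g and Tyrobp (background 2.64%), and 0 higher (background 3.02%). Without knockout replicates 9 and 12, the median over the members was −0.27, and 7 members were lower at an unadjusted p under 0.05 (background 6.02%) and 0 higher (6.52%). With depth as a covariate the median was −0.33, with 0 members lower (background 2.29%) and 0 higher (1.78%). In the 4 wild-type and 3 knockout libraries of 3000000 to 8000000 reads it was −0.38, with 5 members lower (background 4.34%) and 0 higher (4.16%). Without wild-type replicate 4, an adjusted p under 0.05 was reached in limma by 2 members on the lower side, Ly6c2 and Plac8 (background 2.11%), and by 0 on the higher side (3.5%).

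**Figure D1:**
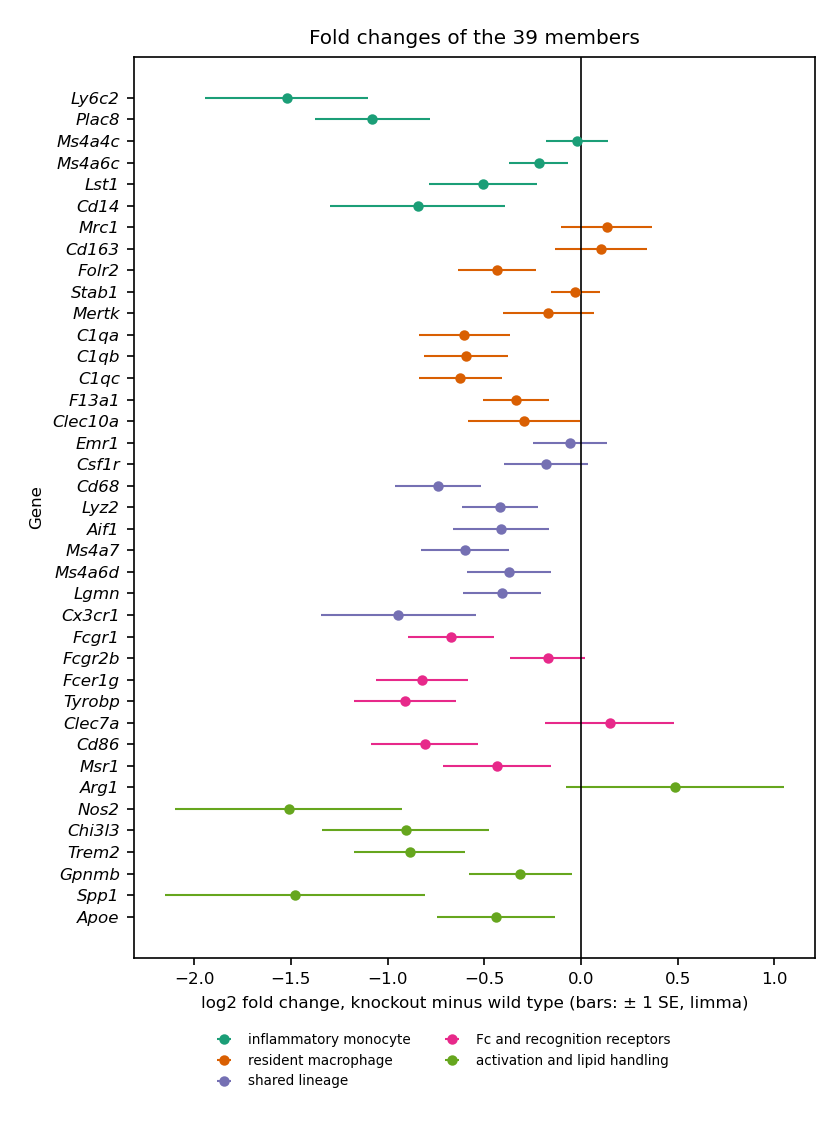
Log2 changes of the 39 members, knockout minus wild type in log2(normalized count + 1) (horizontal axis), with bars of 1 SE from limma and colours for the 5 role groups. Ly6c2 (−1.52), Nos2 (−1.51), Spp1 (−1.48) and Plac8 (−1.08) lie farthest to the left, and Arg1, Clec7a, Mrc1 and Cd163 lie to the right of 0.

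The genes of inflammatory monocytes were led by Ly6c2 and Plac8. All 6 had negative log2 changes with a median of −0.68, and 2 of the 6 had an unadjusted p under 0.05 in limma (background 11.5%). Without knockout replicates 9 and 12 the median was −0.29 and Ms4a4c was positive (0.11). Ly6c2, which encodes the Ly6C surface antigen of these monocytes, had 250.4, 329, 117, 266 and 312 normalized counts in wild-type replicates 2 to 6. In knockout it ran from 30.2 through a median of 116 to 157. Wild-type replicate 4 was the 1 wild-type library inside the knockout range, and knockout replicates 9 and 12 were lowest with 39.7 and 30.2. The mean went from 255 ± 83.8 to 98 ± 51.5 (SD, n = 5 and 6), a log2 change of −1.52 (SE 0.42, limma adjusted p = 0.108, DESeq2 adjusted p = 0.0252). The log2 change of Ly6c2 was −1.78 without wild-type replicate 4 (limma adjusted p = 0.0379) and −0.90 without knockout replicates 9 and 12.

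Plac8, a small cysteine-rich protein abundant in monocytes and other myeloid cells, had 998, 1625, 888, 1461 and 1847 normalized counts in the wild-type libraries and 312 to 1222 in knockout, with a median of 622. Knockout replicate 8, at 1222, lay above the lowest pair of wild-type libraries, and the other 5 knockout libraries lay below all of wild type. The log2 change was −1.08 (SE 0.30, limma adjusted p = 0.108, DESeq2 adjusted p = 0.0329). It was −1.22 without wild-type replicate 4 (limma adjusted p = 0.0435) and −0.74 without knockout replicates 9 and 12. Cd14, the co-receptor for bacterial lipopolysaccharide, had 3626, 6047, 2892, 3745 and 5228 normalized counts in the wild-type mice and 897, 2446 and 6526 as the lowest, median and highest knockout values. Its highest library of all 11 was knockout replicate 8 and its 2 lowest were knockout replicates 9 and 12, so the knockout range covered the whole wild-type range (log2 change −0.84 with an SE of 0.45, adjusted p in limma = 0.263). Without those 2 libraries the log2 change of Cd14 was −0.20. Lst1, a leukocyte-specific transcript, had 111, 49.6, 113, 47.2 and 83.2 normalized counts in the wild-type mice and 31.2 to 71.1 in knockout (log2 change −0.51 with an SE of 0.28, adjusted p in limma = 0.273).

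The MS4A genes of this group, which encode membrane proteins, had the smallest log2 changes in it. Ms4a6c had means of 563 ± 83.8 and 487 ± 98.9 normalized counts (n = 5 and 6, SD; log2 change −0.22, SE 0.15). Ms4a4c had 66.5 ± 10.6 and 65.7 ± 10.2 (log2 change −0.020, SE 0.16), a sign that turned with TMM scaling (0.014). Ms4a6c was −0.074 without knockout replicates 9 and 12. Near copies of these members were measured as well. Ly6c1, the neighbouring copy of Ly6c2 that endothelial cells also express, had 619 ± 91.8 and 466 ± 101 (log2 change −0.43 with an SE of 0.16, adjusted p in limma = 0.145). Ms4a4b, a gene of T cells and a close relative of Ms4a4c, had 34.3 ± 9.61 and 16.9 ± 8.3 (log2 change −1.06, limma adjusted p = 0.109). Reads shared between such copies could be assigned to either, so the values of Ly6c2, Ms4a4c and Ms4a6c carry that uncertainty.

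Among the resident macrophage genes the complement C1q genes had negative log2 changes near −0.60 and the scavenger receptors Mrc1, Cd163 and Stab1 had values near 0. Of 10 members 8 were negative with a median of −0.32. The 3 C1q genes and Folr2 were the 4 lower at an unadjusted limma p under 0.05 (background 11.5%). C1qa, C1qb and C1qc encode the chains of the complement recognition protein C1q, which macrophages secrete, and lie next to each other on chromosome 4 (GRCm38, GENCODE M21: C1qb at 136880129 to 136886187, C1qc at 136889804 to 136893065 and C1qa at 136895917 to 136898803). C1qa had 3401, 2342, 3666, 2880.1 and 2586 normalized counts in the wild-type libraries. Its knockout values ran from 1212 through 2114 to 3085. Knockout replicates 10 and 12 were lowest at 1306 and 1212, and knockout replicate 7 lay above 3 of the 5 wild-type libraries. The log2 change of C1qa was −0.60 (SE 0.24, limma adjusted p = 0.151).

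C1qb had 4369.9, 3199, 4856, 3390.3 and 3256 normalized counts in the wild-type mice and 1553, 2713 and 3666 as the lowest, median and highest knockout values (log2 change −0.59 with an SE of 0.22, adjusted p in limma = 0.14). C1qc had 3314, 3339, 4114, 2951 and 2558 in wild type and 1322, 2199.9 and 3142 in knockout (log2 change −0.62 with an SE of 0.21, adjusted p in limma = 0.125). The groups overlapped through knockout replicate 7 for C1qb, and through knockout replicates 7 and 8 for C1qc. Without knockout replicates 9 and 12 the 3 genes stood at −0.41, −0.42 and −0.43. Folr2, the folate receptor beta of resident macrophages, had 403, 329, 618, 519 and 509.9 normalized counts in the wild-type mice and 258 to 470.2 in knockout, with a median of 339 (log2 change −0.44 with an SE of 0.20, adjusted p in limma = 0.202, and −0.24 without the same libraries).

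Mrc1, the mannose receptor, had 1205, 1543, 3133, 2019 and 1842 normalized counts in the wild-type mice and 1269, 2123 and 2723 as the lowest, median and highest knockout values. Wild-type replicate 4 was the highest of the 11 libraries and wild-type replicate 2 the lowest. The groups differed by a log2 change of 0.13 (SE 0.24, limma adjusted p = 0.745). Cd163, the haemoglobin scavenger receptor, had 583, 1024, 1102, 1092 and 858 in wild type and 510.4, 1064 and 1408 in knockout (log2 change 0.10 with an SE of 0.24, adjusted p in limma = 0.809). The knockout range held 3 of the 5 wild-type values of Mrc1 and all 5 of Cd163. Without wild-type replicate 2 their signs turned, to −0.021 and −0.058, and Cd163 also turned without knockout replicate 11 (−0.0041). The sign of Mrc1 turned with the depth covariate (−0.094), and without knockout replicates 9 and 12 both were positive at 0.33 and 0.36. Without wild-type replicate 4 they were 0.32 and 0.17.

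The remaining 4 resident genes did not pass either. Stab1, the scavenger receptor stabilin-1, had 977 ± 113 and 959.6 ± 134 normalized counts (n = 5 and 6, SD; log2 change −0.030, SE 0.13), and its sign turned with TMM scaling (0.0044) and quantile normalization (0.0032). Mertk, a receptor for the uptake of dying cells, stood at −0.17 (SE 0.24). F13a1, coagulation factor XIII A of macrophages and monocytes, stood at −0.34 (SE 0.17), and Clec10a, a galactose-type lectin of dermal macrophages and dendritic cells, at −0.30 (SE 0.29). All 10 resident genes had their highest wild-type value in replicate 4. Without that library the median of the group was −0.16, Mertk was −0.0032 and Clec10a −0.067. Without knockout replicates 9 and 12 the median was −0.13, Mertk was −0.059, F13a1 −0.18, Clec10a −0.083 and Stab1 0.060.

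**Figure D2:**
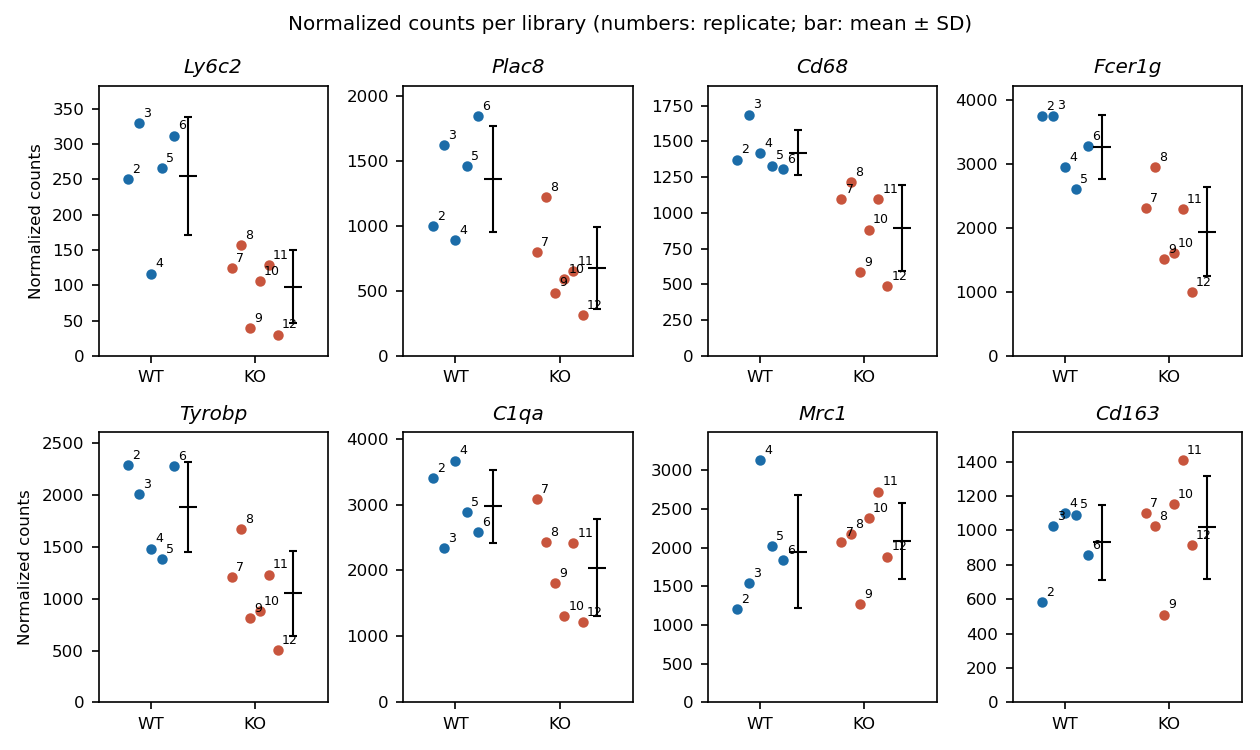
Normalized counts (vertical axes, from 0) of 8 members in each of the 5 wild-type (WT, blue) and 6 knockout (KO, red) libraries, numbered by replicate, with the mean and SD in black. For Cd68 all 6 knockout points lie below the wild-type points, for Ly6c2 only wild-type replicate 4 falls into the knockout range, and for Mrc1 and Cd163 the groups overlap widely.

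Set side by side, inflammatory monocyte genes had the more negative median (−0.68 against −0.32), a difference of 0.36 on the log2 scale for which no test was made. It was 0.51 without wild-type replicate 4, 0.16 without knockout replicates 9 and 12 and 0.091 with depth as a covariate. Within the libraries, the resident score minus the inflammatory score was −0.38, −0.46, 0.47, −0.13 and −0.63 in wild-type replicates 2 to 6, and ran from −0.21 through a median of 0.17 to 0.63 in knockout. Wild-type replicate 4 was the 1 wild-type library above 0. As the scores are centred on the mean of the libraries, this compares libraries and not the levels of the gene groups. There were 20.8, 21.3, 3.73, 13.2 and 16.9 normalized counts of Ly6c2 per 100 of Mrc1 in the wild-type libraries, and 1.60 to 7.24 with a median of 4.60 in the knockout libraries. Apart from wild-type replicate 4, every wild-type ratio lay above every knockout ratio. Plac8 per 100 of Cd163 gave 171, 159, 80.6, 134 and 215 in wild type and 34.1 to 119 with a median of 61.8 in knockout, and again only wild-type replicate 4 lay inside the knockout range. These pairs were chosen with the values of the genes known. The inflammatory genes were not uniform, with log2 changes from −1.52 (Ly6c2) to −0.020 (Ms4a4c). Outside the members, Ccr2 stood at 0.23 and the neutrophil markers had a median of −1.19. Like the inflammatory score, the neutrophil score was lowest in replicate 4 within wild type and in replicates 9 and 12 within knockout. The part of neutrophil RNA in this contrast was not tested.

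**Figure D3:**
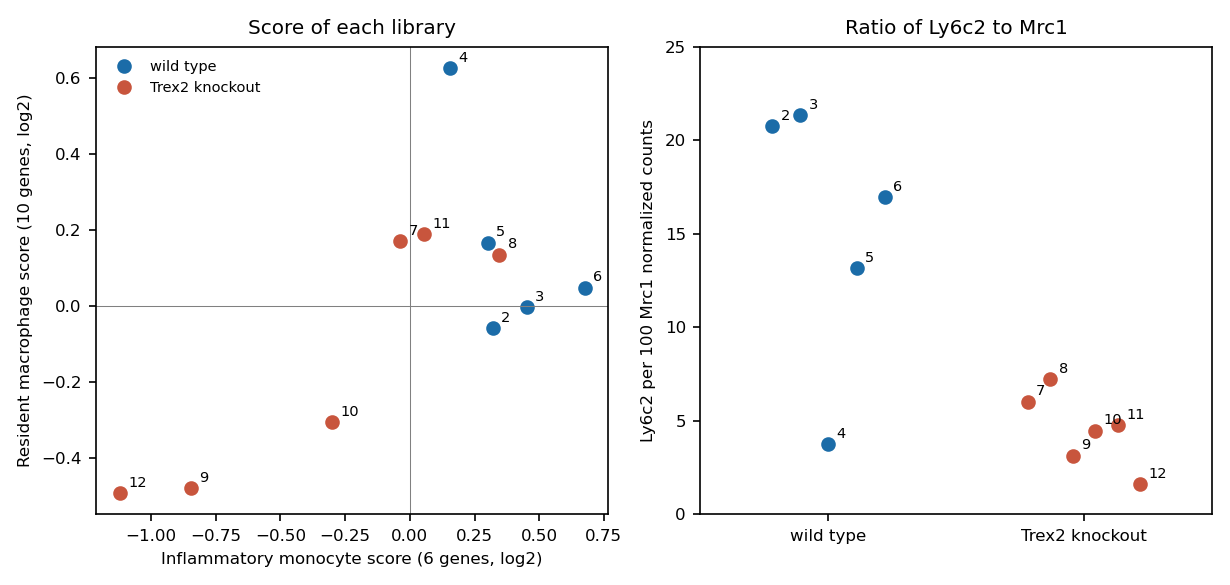
Left, the resident macrophage score (vertical axis, 10 genes) against the inflammatory monocyte score (horizontal axis, 6 genes) of each library on the log2 scale, numbered by replicate. Right, normalized counts of Ly6c2 per 100 of Mrc1 in each library. Knockout replicates 9, 10 and 12 are low on both scores, wild-type replicate 4 has the highest resident score (0.62), and its ratio of 3.73 lies among the knockout libraries (1.60 to 7.24).

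Upstream sequences are shown for Ly6c2 and Plac8, the leading inflammatory genes, for Cd68, the shared gene of smallest p, and for Mrc1, the resident gene with the highest log2 change, so that members with negative log2 changes can be read beside one near 0. Each run is the 250 bases before a transcription start on the strand of the gene, 5′ to 3′, from RefSeq on GRCm38.p6, and the capitals mark GAGGAA or its reverse complement TTCCTC, the core of the PU.1 motif. The windows are chr15:75111972-75112221 (minus strand) for Ly6c2, chr5:100572206-100572455 (minus) for Plac8, chr11:69666171-69666420 (minus) for Cd68 and chr2:14229164-14229413 (plus) for Mrc1.
Ly6c2: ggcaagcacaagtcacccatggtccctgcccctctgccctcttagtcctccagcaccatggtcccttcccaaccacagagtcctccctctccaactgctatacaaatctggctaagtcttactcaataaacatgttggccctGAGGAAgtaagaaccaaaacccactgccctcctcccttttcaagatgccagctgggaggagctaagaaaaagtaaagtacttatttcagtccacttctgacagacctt
Plac8: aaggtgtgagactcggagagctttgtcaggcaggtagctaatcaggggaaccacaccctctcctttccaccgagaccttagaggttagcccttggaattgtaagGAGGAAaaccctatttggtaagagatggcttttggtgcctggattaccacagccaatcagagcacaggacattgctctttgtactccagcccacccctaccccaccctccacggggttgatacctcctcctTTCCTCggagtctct
Cd68: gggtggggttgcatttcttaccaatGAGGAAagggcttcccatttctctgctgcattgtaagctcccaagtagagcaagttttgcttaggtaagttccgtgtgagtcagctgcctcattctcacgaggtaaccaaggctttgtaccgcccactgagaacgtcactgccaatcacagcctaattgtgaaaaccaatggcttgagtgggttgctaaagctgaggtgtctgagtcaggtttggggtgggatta
Mrc1: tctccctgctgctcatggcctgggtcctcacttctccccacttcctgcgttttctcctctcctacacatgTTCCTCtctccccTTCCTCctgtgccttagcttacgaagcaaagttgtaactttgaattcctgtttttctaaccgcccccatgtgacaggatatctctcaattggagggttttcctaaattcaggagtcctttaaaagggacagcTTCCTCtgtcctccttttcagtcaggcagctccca
In the windows shown, Ly6c2 and Cd68 held 1 match each, Plac8 2 and Mrc1 3, so the core was present upstream of all 4. Ly6c2 and Plac8 each had 2 starts, of which only the first listed is shown. Starts were counted for 27 of the 39 members, 37 in all, of which 18 (48.6%) had the core on either strand. Among 32851 windows of the same length 23.3% had it. Cd14 and Csf1r were left out of the member count whether or not they had a start, while the windows were not restricted in that way. The percentages of members and windows therefore do not rest on the same selection. The longer word GAGGAAGT, which contains the core, was found in 4 of the 37 (10.8%) and in 2.44% of all windows. A match is a description of letters and not a measured binding site. Spi1, which encodes PU.1 and is named here for that motif, had 904 ± 144 normalized counts in the wild-type mice and 609 ± 206 in knockout (n = 5 and 6, SD; log2 change −0.63 with an SE of 0.22, adjusted p in limma = 0.131). Knockout replicates 9 and 12 were its lowest libraries (409 and 354). Knockout replicates 8 and 11 (821 and 858) lay within the wild-type range of 713 to 1069.

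Genes shared by the whole lineage had log2 changes from −0.94 to −0.057. All 9 were negative with a median of −0.41, and 3 had an unadjusted p under 0.05 in limma (background 11.5%). Cd68, a lysosomal glycoprotein of macrophages, had 1372, 1688, 1418, 1331 and 1304 normalized counts in the wild-type mice and 486, 989 and 1215 as the lowest, median and highest knockout values. Its groups did not overlap, which held for 2 of 39 members on the lower side (Cd68 and Fcgr1, background 1.29%). The log2 change was −0.74 (SE 0.22, limma adjusted p = 0.108), and −0.41 without knockout replicates 9 and 12. Emr1, the classic surface antigen of mouse macrophages, and Csf1r, the receptor for colony-stimulating factor 1, overlapped between the groups. Emr1 had 918, 871, 2004, 1070.2 and 1089 normalized counts in the wild-type mice and 924, 1080.1 and 1255 in knockout, with 2 wild-type libraries below the whole knockout group and replicate 4 far above it. Its log2 change was −0.057 (SE 0.19, limma adjusted p = 0.873) and turned to 0.15 without wild-type replicate 4. Csf1r had 960.0, 1218, 1862, 828 and 976 in wild type and 736, 992 and 1497 in knockout (log2 change −0.18 with an SE of 0.22, adjusted p in limma = 0.618), and its log2 change was 0.0028 without that library and −0.0097 without knockout replicates 9 and 12.

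Ms4a7, a membrane protein gene of mature macrophages, had 535, 370.0, 672, 432 and 461 normalized counts in the wild-type mice and 206, 337 and 463 in knockout (log2 change −0.60 with an SE of 0.23, adjusted p in limma = 0.147). Cx3cr1, the receptor for fractalkine on patrolling monocytes and some macrophages, had 181, 54.2, 100.1, 35.4 and 105 in wild type and 26.4, 34.4 and 85.9 in knockout. It was among the most variable members within wild type, with a highest value 5.13 times the lowest (log2 change −0.94 with an SE of 0.40, adjusted p in limma = 0.176). Lyz2, the lysozyme of monocytes, macrophages and neutrophils, had 7763, 9616, 11060.1, 8697 and 14002 in wild type and 5332, 7820.3 and 9377 in knockout (log2 change −0.42 with an SE of 0.20, adjusted p in limma = 0.206). Its near copy Lyz1 stood at −0.25. Aif1, an actin-bundling protein of macrophages, Lgmn, the lysosomal protease legumain, and Ms4a6d were −0.41, −0.41 and −0.37, with unadjusted limma p values of 0.121, 0.0648 and 0.112. Ms4a7 was −0.38, Lyz2 −0.27, Lgmn −0.12 and Ms4a6d −0.071 without knockout replicates 9 and 12.

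The Fc receptor adaptors were among the members with the lowest p values. Of the 7 receptors and adaptors 6 were negative with a median of −0.67, and 4 were lower at an unadjusted p under 0.05 (background 11.5%). Fcer1g, the signalling chain shared by activating Fc receptors, had 3740.2, 3750.0, 2949, 2601 and 3276 normalized counts in the wild-type mice and 994, 1947 and 2948 in knockout. Knockout replicate 8 lay above wild-type replicate 5, and the other 5 knockout libraries lay below all of wild type. The log2 change of Fcer1g was −0.82 (SE 0.24, limma adjusted p = 0.108, DESeq2 adjusted p = 0.0446), and −0.53 without knockout replicates 9 and 12. Tyrobp, the adaptor DAP12 through which TREM2 and other myeloid receptors signal, had 2285, 2008, 1481, 1379.7 and 2275 in wild type and 500.5, 1046 and 1669 in knockout. Again knockout replicate 8 alone reached into the wild-type range. The log2 change was −0.91 (SE 0.26, limma adjusted p = 0.108, DESeq2 adjusted p = 0.0413), and −0.60 without the same 2 libraries. Natural killer cells, neutrophils and mast cells also express one or both of these adaptors.

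Fcgr1, the high-affinity receptor for IgG, was the steadiest member within wild type, with 379, 366, 341, 336 and 339 normalized counts and a coefficient of variation of 5.45%. In knockout it ran from 132 through 243 to 331, all below wild type, with a coefficient of variation of 35.8% (log2 change −0.67 with an SE of 0.22, adjusted p in limma = 0.119, and −0.36 without knockout replicates 9 and 12). Cd86, a costimulatory ligand, had 151, 244, 123, 113 and 124 in wild type and 54.8, 71.8 and 144 in knockout (log2 change −0.81 with an SE of 0.28, adjusted p in limma = 0.125). Knockout replicates 8 and 11 overlapped with wild type. The inhibitory receptor Fcgr2b stood at −0.17 (SE 0.19) and the scavenger receptor Msr1 at −0.44 (SE 0.28). They were 0.014 and −0.041 without knockout replicates 9 and 12, and Fcgr2b was −0.0068 without wild-type replicate 4. Clec7a, the beta-glucan receptor dectin-1, stood at 0.15 (SE 0.33), and its sign turned without wild-type replicate 5 (−0.20), where it had 53.6 normalized counts against 108 to 248 elsewhere in the group. Without wild-type replicate 4 it was 0.23. Of the related receptor genes outside the members, Fcgr4 stood at −0.59 (limma adjusted p = 0.151) and Fcgr3 at −0.38 (limma adjusted p = 0.325).

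The activation and lipid genes included Spp1 and Nos2, the members with the widest spread within knockout. Of 7 members 6 were negative with a median of −0.89, and 3 were lower at an unadjusted p under 0.05 (background 11.5%). Nos2, the inducible nitric oxide synthase, had 717, 1832, 577, 896 and 1086 normalized counts in the wild-type mice and 88.1, 390.0 and 1168 in knockout. Knockout replicates 9 and 12 had 88.1 and 112 while knockout replicate 8 had 1168, a ratio of highest to lowest of 13.3 within the knockout group. The log2 change was −1.51 (SE 0.59, limma adjusted p = 0.15), and −0.65 without those 2 libraries. Spp1, the secreted phosphoprotein osteopontin, had 2769, 4986, 1101, 3517 and 2959 in wild type and 224, 1241 and 3512 in knockout (log2 change −1.48 with an SE of 0.67, adjusted p in limma = 0.197). Its highest to lowest ratio within knockout was 15.7, the widest of the members, and it stood at −0.48 without knockout replicates 9 and 12. Chi3l3, the chitinase-like protein Ym1, had 1855, 4838, 1471, 4588 and 2945 in wild type and 593, 1814 and 2795 in knockout (log2 change −0.91 with an SE of 0.43, adjusted p in limma = 0.212, and −0.34 without the same libraries). Only 2 reads in wild type and 5 in knockout fell on its near copy Chi3l4.

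Trem2, a lipid-sensing receptor of macrophages that signals through the product of Tyrobp, had few reads, at 70.8, 67.7, 45.6, 38.1 and 72.2 normalized counts in the wild-type mice and 13.9, 34 and 42.3 in knockout. Its fitted log2 change was −0.89 (SE 0.29, limma adjusted p = 0.116). These values rested on 183 reads summed over wild type and 319 over knockout. Gpnmb, a glycoprotein of lipid-laden macrophages, stood at −0.31 (SE 0.27) and Apoe, the lipid carrier apolipoprotein E, at −0.44 (SE 0.30). Gpnmb was −0.029 without knockout replicates 9 and 12, and without wild-type replicate 4 Apoe was −0.16. Arg1, the arginase of alternatively activated macrophages that epidermal cells can also express, ran the other way and is described after its values were seen. It had 167, 131, 583, 46.3 and 143 normalized counts in the wild-type mice and 118, 159 and 573 in knockout (log2 change 0.49 with an SE of 0.56, adjusted p in limma = 0.607). Its 3 high values were in wild-type replicate 4 (583) and knockout replicates 9 (573) and 12 (457), the 3 libraries with the highest keratinocyte marker scores, and the other 8 libraries had 46.3 to 169. Without knockout replicates 9 and 12 the sign of Arg1 turned (−0.14), and without wild-type replicate 4 its log2 change was 0.97. The part of keratinocyte RNA in the Arg1 values was not tested.

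**Figure D4:**
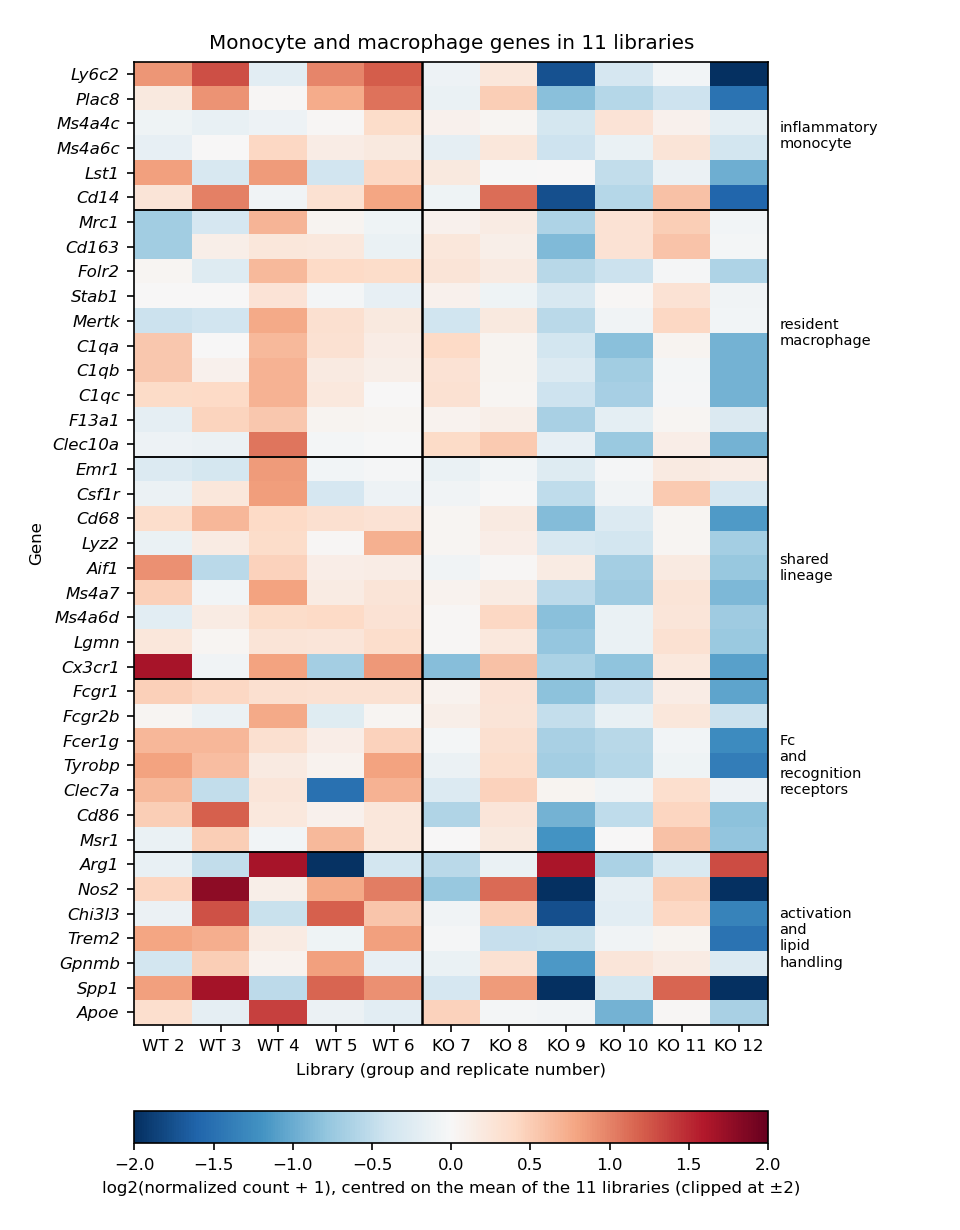
Each member (rows, by role group) in each library (columns; WT wild type, KO knockout), as log2(normalized count + 1) centred on the mean of the gene over the 11 libraries, red above and blue below that mean. Knockout replicates 9 and 12 are the pair of lowest knockout libraries for 23 of 39 members (not counted over all genes), while Arg1 is high in both. The 10 resident macrophage genes have their highest wild-type value in replicate 4.

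For many members the spread among knockout libraries was wide. The lowest knockout value came from replicate 9 or 12 in 36 of 39 members, and these were the 2 lowest knockout libraries for 23. That held for 5 of 6 inflammatory monocyte genes, 6 of 7 receptors and adaptors, and 4 of 10 resident genes. Counts of this kind were not made over all genes. Replicates 9 and 12 also had the lowest knockout scores of neutrophil, mast cell, endothelial and skeletal muscle markers. Their scores of keratinocyte and hair follicle markers were the highest in knockout. For fibroblast, adipocyte and dendritic cell markers they were neither the lowest nor the highest pair. The same held for the score of T and natural killer cell markers, which rested on Klrb1c, Gzma and Nkg7 only. The mean score of all members was 0.23, 0.28, 0.43, 0.13 and 0.32 in wild-type replicates 2 to 6, and ran from −0.79 through a median of −0.18 to 0.24 in knockout. The SD of that score was 0.44 in knockout and 0.11 in wild type. Knockout replicates 8 and 11, at 0.24 and 0.20, lay within the wild-type range, and replicates 9, 10 and 12 lay at −0.67, −0.32 and −0.79. Wild-type replicate 4 was the highest wild-type library for 18 of 39 members and the lowest for 6, namely Ly6c2, Plac8, Cd14, Nos2, Chi3l3 and Spp1.

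Levels of different genes were compared per kilobase of exon. In wild type Lyz2 was the most abundant member with 7772 normalized counts per kilobase, followed by Fcer1g (3734), C1qb (3506), C1qa (2861) and Tyrobp (2827). Mrc1 had 306, Cd163 171, Ly6c2 93.1 and Trem2 11.9 per kilobase. Ly6c2 was 32nd of the 39 in wild type and 35th in knockout, where it had 35.8 normalized counts per kilobase. Mrc1 was 18th in wild type and 16th in knockout (327 per kilobase), and Cd163 25th and 20th (187). These ranks describe means over 5 and 6 libraries and carry no test. The exon length used is that of all annotated exons of a gene, merged over its transcripts. It was 2740 bases for Ly6c2, 4946 for Trem2 and 6371 for Mrc1. Where the transcript expressed is shorter than that, the value per kilobase is too low, so ranks between genes are rough.

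Growth factors, receptors and transcription factors of the lineage had log2 changes in both directions. Of 17 tested genes 13 were negative with a median of −0.23. At an unadjusted p under 0.05, 5 were lower (background 11.5%) and 3 higher (background 12.9%). None passed an adjusted p of 0.05 in limma, and 2 were higher in DESeq2, Klf4 and Cebpa (background 3.02%). Csf1, the ligand of the Csf1r product, stood at −0.49 (limma adjusted p = 0.184), and the receptor chains Csf2ra and Csf2rb for granulocyte-macrophage colony-stimulating factor at −0.61 and −0.70 (limma adjusted p = 0.162 and 0.151). Among the genes of smallest p were Klf4 (0.76, limma adjusted p = 0.108, DESeq2 adjusted p = 0.0377) and Cebpa (0.47, limma adjusted p = 0.109, DESeq2 adjusted p = 0.04995). These are transcription factors of monocyte and macrophage differentiation that keratinocytes also use. Both had their highest values in knockout replicates 9 and 12 (Klf4 2458 and 3467, Cebpa 915 and 790). Klf4 had 1686, 1038, 1523, 1535 and 821 normalized counts in the wild-type mice and 1707 to 3467 in knockout, so the groups did not overlap (background 1.02% of all genes on the higher side). Csf2 had 6 reads in wild type and 13 in knockout and was not tested.

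Genes of recruitment and adhesion were negative in 9 of 11, with a median of −0.42. At an unadjusted p under 0.05 in limma 3 were lower (background 11.5%). Cd47, the signal on many cells that restrains uptake by macrophages, had 1739, 1877, 1149, 1531 and 1622 normalized counts in the wild-type mice and 577, 871 and 1133 in knockout. Its groups did not overlap (background 1.29% of all genes on the lower side), though knockout replicate 8 (1133) lay close to wild-type replicate 4 (1149). The log2 change was −0.90 (SE 0.18, limma adjusted p = 0.108), with a DESeq2 adjusted p of 0.00571 (background 2.64% lower). Ccl7, a chemokine for monocytes, stood at −0.76 (limma adjusted p = 0.179). Ccr2, the receptor by which inflammatory monocytes leave the marrow, had 179 ± 67.3 and 209.7 ± 73.2 normalized counts (n = 5 and 6, SD; log2 change 0.23, limma adjusted p = 0.614).

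Markers of other cells differed beside the members, and their part in the values of the members was not tested. All 11 tested of 13 neutrophil markers were negative with a median of −1.19, and 9 were lower at an unadjusted p under 0.05 (background 11.5%). The summed level of the 13 was 48634 to 118424 normalized counts in the wild-type mice and 16896 to 87453 in knockout. Wild-type replicate 4 had the lowest wild-type sum and knockout replicate 12 the lowest of all. All 6 keratinocyte markers were positive (median 1.89, 4 higher at an unadjusted p under 0.05, background 12.9%), with sums of 34971 to 95153 and 56657 to 193791. Of 9 T cell and natural killer cell markers 3 were tested, Klrb1c, Gzma and Nkg7, and all were negative (median −1.20). Cd3e, Cd3g, Cd5, Trac and Tcrg-C1 were below the minimum level. Of 9 markers of Langerhans and dendritic cells 7 were tested, with 3 negative and 4 positive (median 0.14), and Clec9a had 0 reads in wild type and 5 in knockout. Mast cell markers (6 of 6 negative, median −0.24), fibroblast markers (6 of 6, −0.30), endothelial markers (5 of 5, −0.37), adipocyte markers (5 of 5, −0.27) and skeletal muscle markers (5 of 5, −0.31) had smaller medians. Of 7 hair follicle markers 3 were tested and all were positive (median 0.62).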

How the data were processed

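RNA from 11 mice was sequenced after mRNA selection, per the labels' protocols. The deposited table holds a normalized signal, gene counts that the authors divided by 1 size factor per library. The submitters' processing notes name DESeq2 1.8.1, featureCounts 1.4.6, TopHat2 2.0.8 and the build GRCm38. No source used here gives the strand setting or annotation version, so overlapping antisense genes cannot be told apart. Columns were matched to samples by the number in the title. In each of the 11 columns 100% of values were whole multiples of the value of 1 read (within 0.01), and whole reads were recovered from them. The smallest chi-square per degree of freedom between libraries was 4.74, so each counted as 1 replicate.

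Genotypes were compared with limma 3.58.1 (R 4.3.3, trended prior variance) on values of log2(normalized count + 1), over 13215 genes with a mean of at least 10, with Benjamini-Hochberg adjustment and a threshold of 0.05. This scale understates the fold changes of low genes. edgeR 4.0.16, DESeq2 1.42.0 and voom on recovered reads were alternatives, beside pseudocounts of 0.5 and 5, no minimum or a minimum of 50, TMM and quantile scaling, thinned reads, a depth covariate, libraries of 3000000 to 8000000 reads, and leaving out libraries. The limma script was tested on simulated data. A limit of detection of 3 reads equals 1.04 to 13.5 normalized counts, for counting error only. The p-values measure the spread between these mice. Members, role groups, lists and alternatives were chosen with earlier results of these data known. Full values were given for 8 set members, the 4 of smallest p in each role group and up to 3 genes of each further list; others were named after their values were seen, and 2 genes that this rule takes are not reported here. The symbol of 1 listed gene, Spi1, was matched through an older name. Exon lengths and positions come from GENCODE M21.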

Additional observations from a re-analysis of the deposited data

Results flagged for a closer look

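Within each genotype, the highest or lowest library of each of the 39 members was compared with its nearest neighbour relative to the range of the group. Of 78 such groups 5 had a library set apart, and chance alone sets apart about 1 in 20. All 5 were high values in wild-type replicate 4. Clec10a had 972 normalized counts there, against a next highest wild-type value of 457. Emr1 had 2004 against 1089, Fcgr2b 1682 against 1022, Arg1 583 against 167 and Apoe 10705 against 5232.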

How the results depend on the processing

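Under the 24 alternatives, 903 of 935 fold changes of members kept their direction and their side of the threshold. As no member passed in the limma fit of all 11 libraries, these 903 again did not pass. A smaller change of the same sign counted as kept, such as Cd14 at −0.84 and, without knockout replicates 9 and 12, −0.20. Of the members 29 kept their direction throughout. The count of genes past the threshold was 2, against 4 in edgeR and 617 in DESeq2. In DESeq2 4 members were lower (background 2.64%), Ly6c2 (−1.39), Plac8 (−1.02), Fcer1g (−0.76) and Tyrobp (−0.85). Leaving out 1 library at a time gave 2 to 740 genes and 0 to 2 members lower, the highest of both without wild-type replicate 4 (Ly6c2 and Plac8; background 2.11%). The median of the members was −0.56 to −0.35 over these 11 fits, and that of the inflammatory monocyte genes −0.85 to −0.48. The median of the resident genes was −0.41 to −0.16, and the difference of the medians 0.24 to 0.51. Within libraries of 3000000 to 8000000 reads (4 wild type, 3 knockout) the median of the members was −0.38, with 5 members lower at an unadjusted p under 0.05 (background 4.34%). The difference in mean depth was 4334591 to 6821090 reads, and its exact permutation p was 0.0524 without wild-type replicate 2 or 6 and 0.0714 without replicate 3, each a test of fewer libraries.

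Signs turned for 10 members, and the cause was not tested. With TMM scaling Ms4a4c was 0.014 and Stab1 0.0044, and with quantile normalization Stab1 was 0.0032. Clec7a was −0.035 in edgeR and −0.040 in DESeq2. Thinned reads gave 0.39 for Ms4a4c and 0.015 for Emr1, and the depth covariate −0.094 for Mrc1. Libraries of 3000000 to 8000000 reads gave −0.11 for Mrc1, −0.081 for Cd163 and 0.017 for Clec10a. Without knockout replicates 9 and 12 together Ms4a4c was 0.11, Stab1 0.060, Fcgr2b 0.014 and Arg1 −0.14. Leaving out 1 library at a time moved Mrc1 from −0.021 to 0.32, Cd163 from −0.058 to 0.29, Stab1 from −0.090 to 0.034, Emr1 from −0.15 to 0.15, Csf1r from −0.30 to 0.0028, Clec7a from −0.20 to 0.34 and Ms4a4c from −0.078 to 0.070. No paired analysis was made because the labels name no pairs of mice between the groups. The shallowest wild-type library, replicate 3, held 1208896 reads, where 3 reads equal 13.5 normalized counts.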
